A study of Mus musculus with 18 samples.

Results

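The 28 genes described here encode proteins of the small subunit of the cytosolic ribosome: Rpsa, Rps2, Rps3, Rps3a1, Rps4x, Rps6, Rps7, Rps9, Rps10, Rps12, Rps13, Rps14, Rps15, Rps15a, Rps16, Rps18, Rps19, Rps20, Rps21, Rps23, Rps24, Rps25, Rps26, Rps27, Rps27a, Rps28, Rps29 and Fau. They were taken by name from 21887 protein-coding genes. A gene was counted as having a MYC peak in a library when the summit of a listed peak lay within 1 kb of either end of its RefSeq span on mm10. The 28 names are the listed members and no gene was added or dropped.

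MYC occupancy was measured by chromatin immunoprecipitation and sequencing (ChIP-seq) in frozen liver tumours of FVB mice, and the design asks whether it differs with the dose of Arid1a, whose product belongs to the chromatin remodeller SWI/SNF. The Arid1a Homo tumours came from mice about 100 days old that carried LAP-tta, TRE-MYC, Alb-cre and Arid1afl/fl, the Arid1a Het tumours from mice about 70 days old with LAP-tta, TRE-MYC, Alb-cre and Arid1afl/+, and the WT tumours from mice about 55 days old with LAP-tta, TRE-MYC and Arid1aflfl but no Alb-cre. All mice carried the doxycycline-controlled MYC transgene, which was switched on by taking them off doxycycline water, and tumours were collected at death. There were 3 MYC and 3 input samples per genotype, and the values come from the 9 MYC peak lists. LAP and albumin regulatory sequences act in hepatocytes, so other cells of a tumour keep Arid1a. Age differed between all groups, so genotype and age cannot be told apart. Cre was absent from WT only, so in the comparisons with WT genotype and Cre cannot be told apart either. The lists hold peaks and no expression, so the tissue could not be checked by marker genes. The Arid1a deletion was not visible in them either: a peak at an Arid1a end was listed in 0 Homo libraries, in Het replicate 1 (fold 4.25) and in WT replicate 3 (fold 4.19). The labels do not state whether replicates are different animals, and the p-values below measure the spread between these libraries, which may be technical.

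Ribosomal proteins of the small subunit fold and stabilise its rRNA, build the channel through which mRNA passes, and form the decoding site. Their genes are transcribed at high rates in growing cells, and MYC is a known regulator of ribosome production that binds near gene starts as a heterodimer with MAX, with the E-box CACGTG as its preferred sequence. In mammals many of the transcripts start with a run of pyrimidines that places their translation under mTOR control. Loss of 1 copy of several of these genes, RPS19 above all, causes Diamond-Blackfan anaemia in humans.

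The libraries differed widely in how many peaks were listed. In replicate order, here and below, there were 112, 51 and 303 peaks in Homo, 1713, 1869 and 378 in Het, and 92, 1567 and 4291 in WT. Homo replicate 2 and WT replicate 1 stood apart, with 17.6% and 15.2% of their peaks at gene ends against 43.9% to 64.4% in the other 7 libraries. Depth, read from the peak values, was 3.37 to 3.69 input reads per kb in Homo, 3.63 to 4.34 in Het and 4.04 to 6.27 in WT. The MYC libraries held 8.60 to 12.4 reads per kb in Homo, 7.80 to 15.2 in Het and 11.1 to 14.8 in WT. The part of depth and list length in the results below was not tested apart from the alternatives given.

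Over all libraries, 23 of the 28 genes had a peak in at least 1 library, and 18 of 28 (64.3%) in at least 2. Of all protein-coding genes, 14.9% had a peak in at least 1 library and 8.03% in at least 2. Peaks were listed in 5 libraries for Rps19 and Rps24, 4 for 9 genes, 3 for 4 genes, 2 for 3 genes and 1 for 5 genes. A total of 4 libraries listed no member: Homo replicates 1 and 2, Het replicate 3 and WT replicate 1. In the other libraries the number of genes with a peak was 2 in Homo replicate 3, 15 and 16 in Het replicates 1 and 2, and 14 and 22 in WT replicates 2 and 3. All protein-coding genes were called at 0.918% in Homo replicate 3, 5.58% and 6.14% in these Het libraries, and 4.86% and 14.1% in these WT libraries. In the 4 libraries without a member the background was low: 0.324% in Homo replicate 1, 0.0548% in Homo replicate 2, 0.854% in Het replicate 3 and 0.0731% in WT replicate 1.

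The folds given below are the authors' values, each relative to the background of its own library, and they describe peaks without being scaled between libraries. Ribosomal protein genes have many processed pseudogenes, and the sources used here do not say how reads of near-identical copies were placed.

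**Figure D1:**
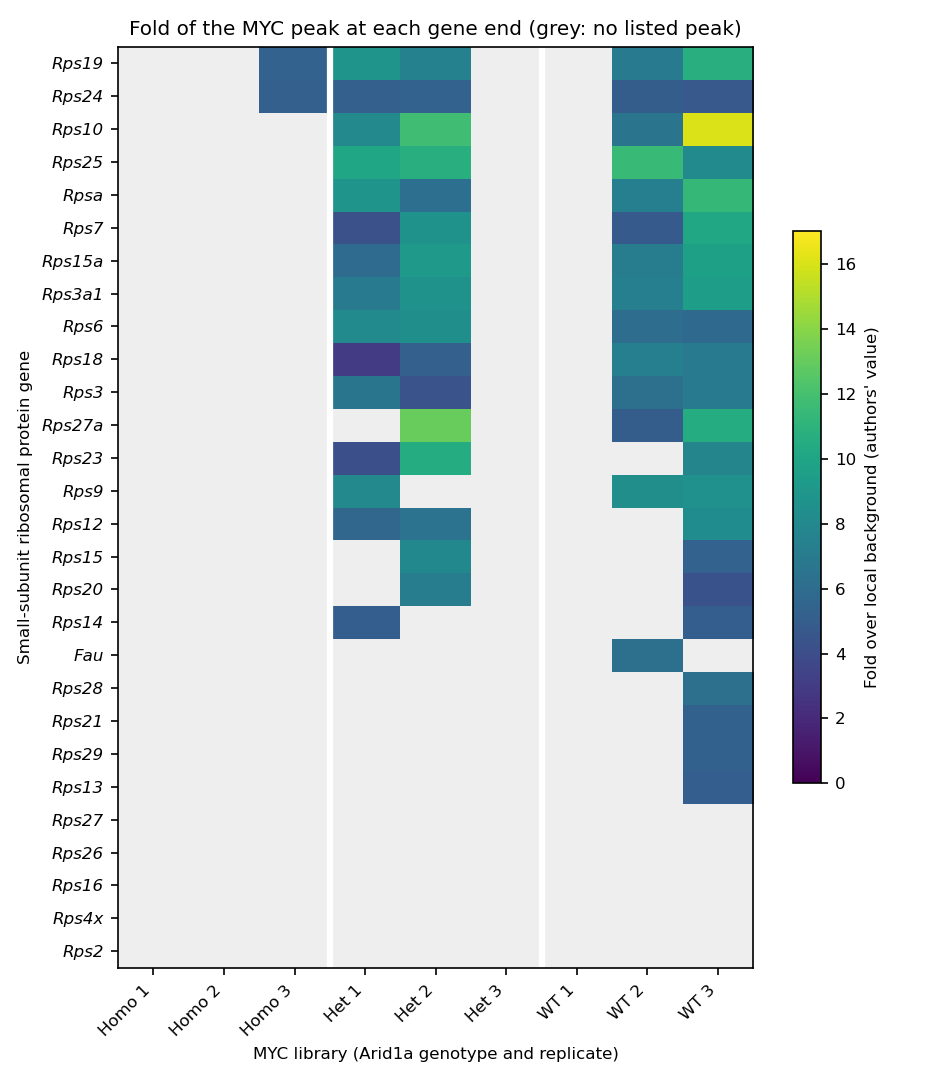
Fold of the MYC peak over local background, the authors' value, for each of the 28 genes (rows) in each of the 9 MYC libraries (columns, Homo, Het and WT), with grey where no peak was listed and the higher fold where a gene had more than 1 peak. Rps19 and Rps24 are the only genes with a peak in a Homo library, and 11 genes, those with a peak in at least 4 libraries, have one in each of Het replicates 1 and 2 and WT replicates 2 and 3.

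Both genes with a Homo peak are among the several members linked to Diamond-Blackfan anaemia, most of which had no Homo peak. Rps19, a protein of the head of the subunit (chromosome 7, span 24884592 to 24889811, plus strand), had folds of 5.35 in Homo replicate 3, 8.77 and 7.46 in Het replicates 1 and 2, and 7.02 and 10.7 in WT replicates 2 and 3. Its Homo peak was the lowest of the 5 on this scale, and it stood at the 19.1th percentile of its list, whereas the Het peaks stood at the 81.1th and 54.4th and the WT peaks at the 55.6th and 88.3th. The summit held 73 MYC reads in Homo replicate 3, 93 and 78 in the Het libraries, and 75 and 82 in the WT libraries.

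The summits of Rps19 lay around a CACGTG, shown here because it was the E-box nearest to them in the RefSeq promoter sequences (GRCm38.p6, chr7:24884781-24884810, plus strand, 201 bp inside the gene, the E-box in capitals).
Rps19 E-box: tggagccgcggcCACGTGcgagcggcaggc
The summit lay inside this E-box in WT replicate 3, 9 bp from it in WT replicate 2 and Het replicate 2, 18 bp from it in Het replicate 1 and 17 bp from it in Homo replicate 3. The position was therefore close in all 3 genotypes. The tables used here give gene spans without exons, so the site was not assigned to an exon or intron.

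Rps24, a protein of the body of the subunit (chromosome 14, span 24490678 to 24496960, plus strand), had folds of 5.18 in Homo replicate 3, 5.18 and 5.34 in Het replicates 1 and 2, and 5.03 and 4.72 in WT replicates 2 and 3. These folds were nearly level across libraries and low in each list, at the 17.5th percentile in Homo, the 18.7th and 17.3th in Het, and the 16.3th and 12.2th in WT. Its summits lay 111 bp inside the gene in Homo, 156 and 201 bp in Het, and 143 and 234 bp in WT. Rps24 had no CACGTG in the RefSeq promoter sequence, which does not cover the 50 bp around its summits. The CACGTG of Rps19 was in the window of an inner start, so the 2 genes cannot be compared in this.

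Among the other 9 genes with a peak in both long Het and both long WT lists, the highest folds belonged to Rps10, Rps25 and Rpsa. Rps10, a head protein also linked to Diamond-Blackfan anaemia (chromosome 17, span 27630415 to 27635244, minus strand), had folds of 7.97 and 11.8 in Het replicates 1 and 2, and 6.53 and 16.1 in WT replicates 2 and 3. The value of 16.1 was the highest of any member in any library, at the 97.7th percentile of its list. Rps25, a head protein used in initiation at some viral internal ribosome entry sites (chromosome 9, span 44407714 to 44410406, plus strand), had folds of 10.1 and 10.7 in Het and 11.5 and 8.12 in WT. Rps25 was the most even of the high members, and it had a second peak (fold 5.41) at -259 bp from its 5′ end in WT replicate 3. Rpsa, a body protein also known as the laminin receptor (chromosome 9, span 120127766 to 120132369, plus strand), had folds of 8.77 and 6.18 in Het and 7.34 and 11.3 in WT. For none of these genes did the Het and WT values separate.

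Rps7, a body protein, had folds of 4.22 and 8.74 in Het and 4.80 and 10.19 in WT, so the spread within each genotype was larger than the gap between them. Rps15a, of the body, had 5.96 and 9.17 in Het and 7.17 and 9.64 in WT. Rps3a1, also of the body, had 7.06 and 8.74 in Het and 7.33 and 9.56 in WT. In these genes replicate 2 was higher than replicate 1 in Het, and replicate 3 was higher than replicate 2 in WT. Rps6, the substrate of the S6 kinases, went the other way in WT, with 8.16 and 8.48 in Het and 6.08 and 5.84 in WT, and its Het and WT values did not overlap. Rps3, which lines the mRNA entry channel, had 6.59 and 4.32 in Het and 6.27 and 6.93 in WT. Rps18, a head protein, had 3.002 and 5.19 in Het and 7.31 and 7.05 in WT, which did not overlap either, with WT higher. Those of Rps24, given above, did not overlap, with Het higher. With 2 libraries each and folds not scaled between libraries, these separations go both ways and were not tested. The value of 5.19 in Het replicate 2 was a peak at the Rps18 3′ end, at -673 bp (outside the span). It also lay within 1 kb of 1 of the 2 span ends of the neighbouring B3galt4. No peak was listed at the Rps18 start in that library, which is counted for Rps18 through this peak alone. WT replicate 3 also listed a peak at the Rps18 3′ end, at -447 bp (fold 5.49), besides the one at the start.

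Genes with a peak in 3 libraries were Rps27a, Rps23, Rps9 and Rps12. Rps27a, which encodes a ribosomal protein fused to ubiquitin, had a fold of 13.1 in Het replicate 2 and none in Het replicate 1, and 5.04 and 10.5 in WT replicates 2 and 3. Rps23, a protein of the decoding centre, had 4.18 and 10.5 in Het and 7.76 in WT replicate 3. Rps9, which contributes to decoding accuracy, had 8.02 in Het replicate 1, and 8.42 and 8.58 in WT. Rps12, of the head, had 5.61 and 6.50 in Het and 8.25 in WT replicate 3. Rps15 (7.96 in Het, 5.33 in WT), Rps20 (7.22 and 4.26) and Rps14 (5.11 and 5.07) each had a peak in 1 Het library and in WT replicate 3.

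Rps13, Rps21, Rps28 and Rps29 had a peak in WT replicate 3 only, with folds of 5.05 to 6.26, and Fau, which encodes a ribosomal protein fused to a ubiquitin-like protein, in WT replicate 2 only (6.31). Of the 5 genes seen in 1 library, 4 were in the longest list, WT replicate 3, where 14.1% of all genes had a peak. The share of all genes seen in that library alone is not given here, so this count has no scale. Rps2, Rps4x, Rps16, Rps26 and Rps27 had no peak within 1 kb of either end in any library. For Rps2 the RefSeq promoter table places the start inside the span, at 24720063 on chromosome 17, and WT replicate 3 listed a peak 105 bp downstream of that start (fold 7.01). This summit lay 1759 bp from the nearer span end and is the nearest value outside the 1 kb limit. The farthest summit inside it was that of Rps18 at -673 bp. The nearest summits to Rps27, Rps16, Rps26 and Rps4x were 17945, 38675, 58349 and 962275 bp away. Rps4x is the X-linked member.

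By position in the subunit, 9 of 12 genes for head proteins and 9 of 16 for body proteins had a peak in at least 2 libraries. It was 8.03% of all protein-coding genes. The head genes numbered 1 in Homo replicate 3, 6 and 9 in Het replicates 1 and 2, and 6 and 11 in WT replicates 2 and 3. The body genes numbered 1 in Homo replicate 3, 9 and 7 in Het, and 8 and 11 in WT. In the same order, 0.918%, 5.58%, 6.14%, 4.86% and 14.1% of all protein-coding genes had a peak in these libraries. Small nucleolar RNA genes lie within the spans of 8 of the 28 genes, and 5 of these 8 had a peak in at least 2 libraries, compared with 13 of the other 20. The share among all genes that hold such RNA genes is not given here, and no difference between these groups was tested.

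The number of genes with a peak did not separate the genotypes beyond the spread between libraries. It averaged 0.667 ± 1.15 in Homo, 10.3 ± 8.96 in Het and 12 ± 11.1 in WT (SD, n = 3 each). The mean difference of Homo from WT was -11.3 genes, that of Homo from Het -9.67, and that of Het from WT -1.67. The Homo range of 0 to 2 genes overlapped the Het range of 0 to 16 and the WT range of 0 to 22, since each genotype had at least 1 library without a member. Without Homo replicate 2 and WT replicate 1 the difference of Homo from WT was -17.0 and that of Homo from Het -9.33. In at least 2 of the 3 libraries of a genotype, 0 genes had a peak in Homo, 13 in Het and 13 in WT, against 0.238%, 3.98% and 4.66% of all genes. In at least 1 library it was 2 genes in Homo, 18 in Het and 23 in WT, against 1.03%, 7.85% and 14.3% of all genes. No test was made on these counts, since the genes were chosen with results of these data known.

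Of the 28 genes, 0 had a peak in a Homo library and in no WT library, 21 in WT and not Homo, and 2 in both, against 0.00914%, 13.3% and 1.02% of all genes. Between Homo and Het, 0 had a peak in Homo only, 16 in Het only and 2 in both, against 0.0228%, 6.85% and 1.01% of all genes. These comparisons share the Homo libraries. Between Het and WT, 0 had a peak in Het libraries only, 5 in WT libraries only and 18 in both, against 0.585%, 7.05% and 7.27% of all genes. For single genes the presence of a peak was tested by an exact two-sided permutation over 3 against 3 libraries, which cannot give a p below 0.1. No member had a peak in all libraries of 1 genotype and in none of another, which held for 0% of all genes between Homo and WT, 0.297% (65 genes) between Homo and Het and 0% between Het and WT. The lowest unadjusted exact permutation p of a member was 0.4 for Homo against WT and for Homo against Het, and 1 for Het against WT, so that 0 members had a p under 0.05. The lowest Benjamini-Hochberg adjusted exact p over all genes was 0.947, for Homo against Het.

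These presence counts rested on single libraries. Without WT replicate 1, 11 members had a peak in both other WT libraries and in no Homo library, against 3.70% of all genes. Without Het replicate 3, 11 members had a peak in both other Het libraries and in no Homo library, against 2.99% of all genes. The reverse direction held for 0 genes in either case.

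**Figure D2:**
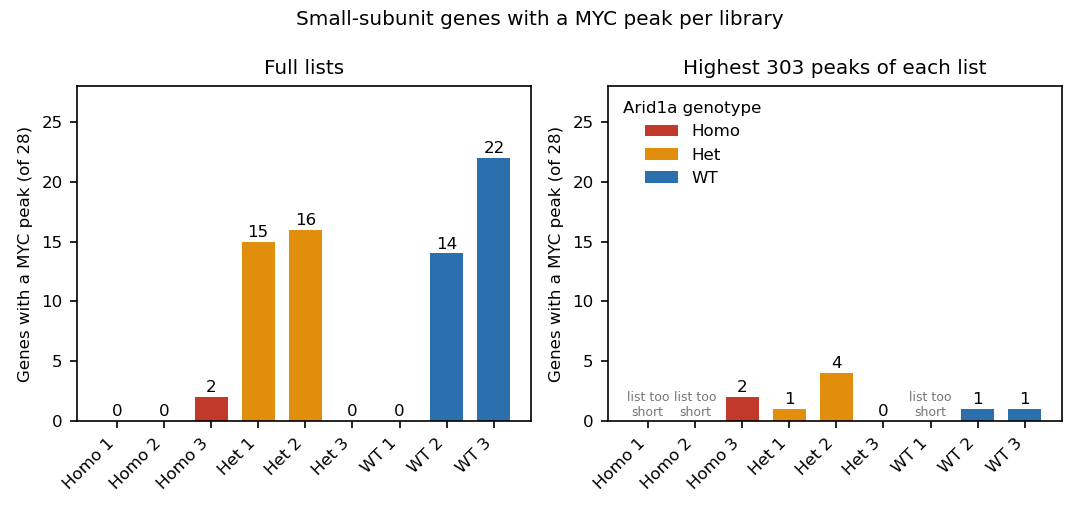
Number of the 28 genes with a MYC peak in each library (bars, coloured by Arid1a genotype), in the full lists (left) and with every list of at least 303 peaks cut to its 303 highest folds (right, the length of the longest Homo list). In the full lists the numbers run from 0 to 22, and in lists of equal length from 0 to 4.

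Lists of equal length gave other counts. When the lists with at least 303 peaks were each cut to their 303 highest folds, the number of members was 2 in Homo replicate 3, 1, 4 and 0 in Het, and 1 and 1 in WT replicates 2 and 3, with 0.918% of all genes called in Homo, 0.818%, 1.01% and 0.653% in Het, and 0.745% and 0.982% in WT. At this length no deficit of Homo replicate 3 was seen, and the differences turned to 1.00 gene for Homo minus WT and 0.333 for Homo minus Het. Only 1 Homo library was long enough, so the comparison has no replicate in Homo. The members found at this length differed: Rps19 and Rps24 in Homo replicate 3, Rps25 in Het replicate 1, Rps10, Rps23, Rps25 and Rps27a in Het replicate 2, Rps25 in WT replicate 2 and Rps10 in WT replicate 3. Among the 51 highest peaks of each list, no library had a member, while all genes were called at 0.16%, 0.0548% and 0.0503% in Homo, 0.0685%, 0.123% and 0.0548% in Het, and 0.0137%, 0.0228% and 0.114% in WT. The best member rank in any list was 99, for Rps10 in WT replicate 3, so this setting cannot compare the genotypes.

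Taken as a share of all genes with a peak, the members made up 0%, 0% and 0.995% in Homo, 1.23%, 1.19% and 0% in Het, and 0%, 1.32% and 0.712% in WT. The exact Clopper-Pearson 95% interval was 0.121% to 3.55% in Homo replicate 3, 0.689% to 2.02% and 0.682% to 1.93% in Het replicates 1 and 2, and 0.722% to 2.2% and 0.447% to 1.08% in WT replicates 2 and 3. The intervals of these 5 libraries overlapped. Where the share was 0 the upper bounds were 5.06% and 26.5% in Homo replicates 1 and 2, 1.95% in Het replicate 3 and 20.6% in WT replicate 1, and the intervals cover counting error only. Het replicate 3 had 187 genes with a peak and none of the 28, whereas Homo replicate 3 had 201 and 2. The mean share was 0.332% ± 0.574 in Homo, 0.807% ± 0.699 in Het and 0.676% ± 0.659 in WT (SD, n = 3 each), and the differences were smaller than these spreads. The difference of Homo from WT in mean share, -0.34 percentage points, was -0.0243 without WT replicate 2, -0.179 without Homo replicate 1 or Homo replicate 2, -0.676 without Homo replicate 3 and -0.683 without WT replicate 1. That of Homo from Het, -0.47, was -0.264 without Het replicate 1, -0.283 without Het replicate 2, -0.309 without Homo replicate 1 or Homo replicate 2, -0.807 without Homo replicate 3 and -0.878 without Het replicate 3.

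**Figure D3:**
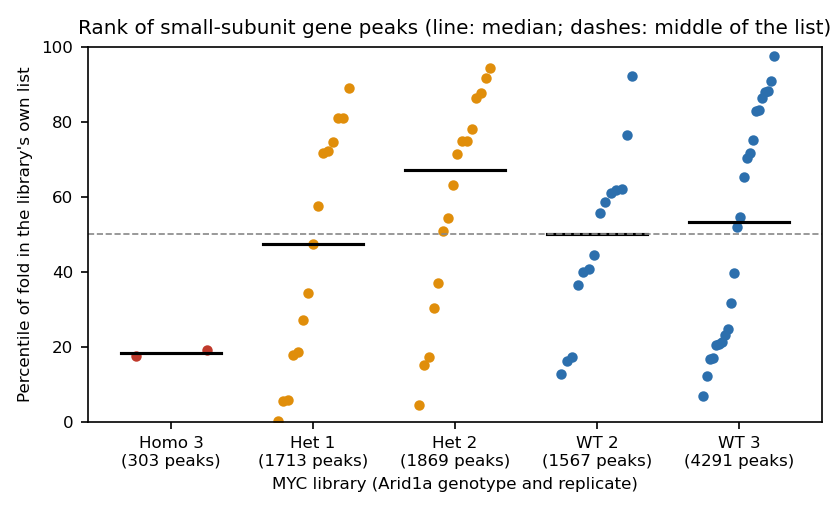
Percentile of the fold of each member peak within its own library's list, for the 5 libraries with a member (points, coloured by Arid1a genotype; black lines are medians, the dashed line is the middle of the list). The 2 Homo points sit at 17.5 and 19.1, and the Het and WT points spread over almost the whole range.

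The rank of peaks at the small-subunit genes differed between libraries. The median percentile of fold was 18.3 in Homo replicate 3 (2 peaks), 47.3 and 67.3 in Het replicates 1 and 2 (15 and 16 peaks), and 50.03 and 53.2 in WT replicates 2 and 3 (14 and 24 peaks). For all peaks at gene ends it was 40.3 in Homo replicate 3, 43.9 and 47.5 in Het, and 45.9 and 48.4 in WT. The members' median folds were 5.27 in Homo, 6.59 and 8.22 in Het, and 6.77 and 6.99 in WT, against 6.44, 6.41, 7.03, 6.58 and 6.72 for all gene-end peaks of the same libraries. The members' median rank thus lay within a few percentile points of that of all gene-end peaks in Het replicate 1 and WT replicates 2 and 3, above it in Het replicate 2, where 11 of 16 member peaks were above the middle of the list, and below it in Homo replicate 3. Ranks from lists of unlike length do not show a change. A gene without a listed peak can still be bound below the limit of its list. The lowest fold listed at a gene end was 3.59, 5.21 and 3.26 in Homo, 3.002, 2.83 and 3.41 in Het, and 3.69, 1.97 and 2.51 in WT. The order of the members by fold was only loosely shared. Over the 6 pairs of the 4 long lists, Spearman's rho across 12 to 16 shared genes was between 0.04 and 0.50, and these genes share libraries and depth.

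The summits had a narrow place relative to the gene. Of 63 member peaks with a strand in the RefSeq table, 61 (96.8%) were nearer the 5′ end. At all other protein-coding genes it was 5876 of 6218 (94.5%), so this share was near the background. Of the 61 member summits, 58 (95.1%) lay downstream of the 5′ end, against 60.6% at other genes. They lay 48 to 644 bp downstream, with a median of 156.5 bp. Between 50 and 300 bp downstream lay 54 of 61 member summits (88.5%), compared with 1791 of 5876 (30.5%) at all other protein-coding genes. Counted per gene by the median over its peaks, it was 15 of 19 small-subunit genes (78.9%), with a median of 154.5 bp, and 784 of 2558 others (30.6%), with a median of 50 bp. In Homo replicate 3 both of 2 member summits lay in this stretch, against 36.2% of the summits at other genes. It was 13 of 14 and 13 of 13 member summits in Het replicates 1 and 2, against 31.6% and 32.3% of other summits, and 11 of 13 and 15 of 19 in WT replicates 2 and 3, against 29.8% and 28.5%. The stretch thus held most member summits in each of these 5 libraries. At the large-subunit ribosomal protein genes it held 22 of 25 genes (88.0%), with a median of 137.5 bp. Of the small-subunit assembly factors it held 17 of 29 (58.6%), with a median of 71.5 bp, and of the mitochondrial small-subunit genes 3 of 8 (37.5%). No test was made of these shares, since peaks of 1 gene recur across libraries. It is not recorded that the limits of the stretch were set before the summits were seen. The 5′ end is the outer end of the gene span, which need not be the start in use.

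**Figure D4:**
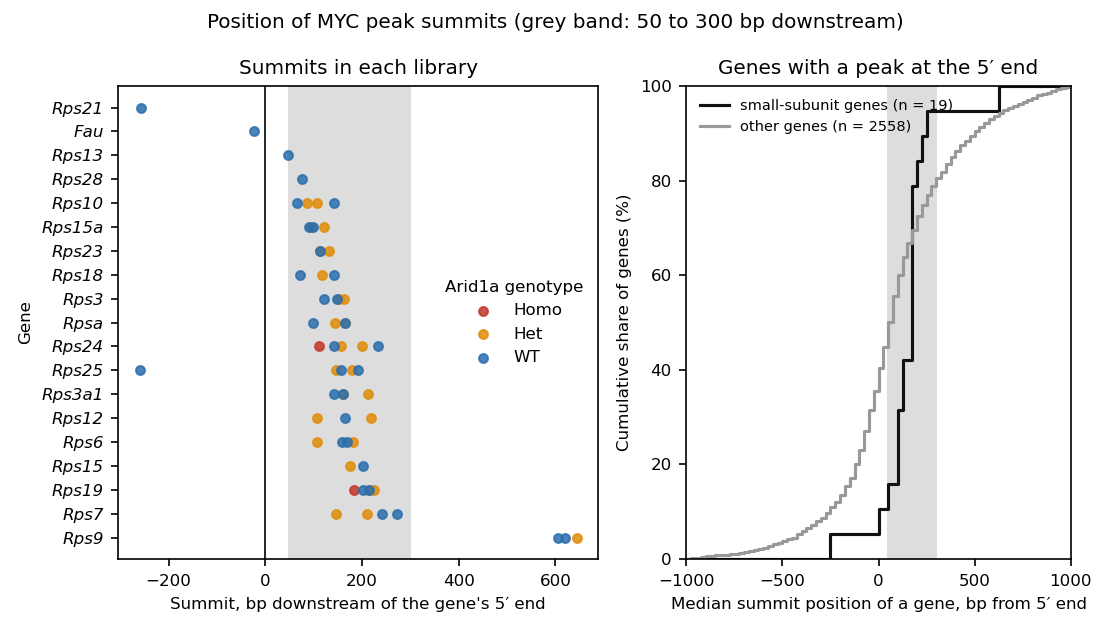
Left, position of each MYC summit relative to the 5′ end of its gene in bp, positive downstream, for the 19 small-subunit genes with a 5′ peak and a known strand (points, coloured by Arid1a genotype). Right, cumulative share of genes by their median summit position, for these 19 genes (black) and 2558 other protein-coding genes (grey). The grey band marks 50 to 300 bp downstream, which holds 15 of the 19 genes and 30.6% of the others.

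For the 18 genes with an inside summit in at least 2 libraries, its range over libraries was 18 to 125 bp with a median of 56.5 bp. This was not compared with recurrent peaks of other genes, so it is not shown to be particular to the members. Rps9 was set apart by its distance, at 644 bp in Het replicate 1, and 619 and 606 bp in WT replicates 2 and 3. Rps21 and Fau had their single summits 256 and 23 bp before the 5′ end. The 8 peaks of Rps14, Rps20, Rps27a and Rps29, whose strand is not in the table, lay 58 to 212 bp inside the nearer span end. Some peaks lay within 1 kb of a second protein-coding gene's end: those of Rps18 near Vps52 or B3galt4, of Rps25 near Trappc4, of Rps27a near Clhc1, of Rps28 near Ndufa7 and of Fau near Mrpl49. For these genes the peak cannot be assigned to 1 of the 2.

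Promoter sequences are shown for 6 genes, chosen by number of libraries and then by highest fold, to set their letters beside the place of the summits. Each is the 200 bases before the annotated start on the gene's strand, from RefSeq (GRCm38.p6), and capitals mark a match on either strand to the E-box CACGTG, to its variant CACATG, to its variant CACGCG, to its variant CACGAG, or to the ETS factor core CCGGAAG.
Rps19 (chr7:24884392-24884591, plus strand): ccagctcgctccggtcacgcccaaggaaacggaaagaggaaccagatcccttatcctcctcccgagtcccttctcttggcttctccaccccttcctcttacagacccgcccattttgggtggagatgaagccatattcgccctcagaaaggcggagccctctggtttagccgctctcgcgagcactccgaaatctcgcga
Rps24 (chr14:24490478-24490677, plus strand): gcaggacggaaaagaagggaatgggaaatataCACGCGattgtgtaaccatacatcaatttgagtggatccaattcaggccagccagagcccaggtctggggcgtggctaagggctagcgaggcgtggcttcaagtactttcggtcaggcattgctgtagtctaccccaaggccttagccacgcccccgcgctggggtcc
Rps10 (chr17:27635245-27635444, minus strand): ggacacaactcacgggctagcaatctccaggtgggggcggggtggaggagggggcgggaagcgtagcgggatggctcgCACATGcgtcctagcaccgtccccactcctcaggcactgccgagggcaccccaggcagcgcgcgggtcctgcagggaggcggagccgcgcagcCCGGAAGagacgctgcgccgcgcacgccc
Rps25 (chr9:44407514-44407713, plus strand): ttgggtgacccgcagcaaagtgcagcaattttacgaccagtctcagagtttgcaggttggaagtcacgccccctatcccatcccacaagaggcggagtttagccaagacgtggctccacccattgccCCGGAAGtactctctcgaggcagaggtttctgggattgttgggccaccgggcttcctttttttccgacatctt
Rpsa (chr9:120127566-120127765, plus strand): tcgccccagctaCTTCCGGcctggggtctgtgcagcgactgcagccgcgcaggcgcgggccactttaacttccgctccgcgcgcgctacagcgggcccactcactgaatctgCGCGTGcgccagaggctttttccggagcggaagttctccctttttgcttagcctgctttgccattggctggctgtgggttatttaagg
Rps7 (chr12:28635954-28636153, minus strand): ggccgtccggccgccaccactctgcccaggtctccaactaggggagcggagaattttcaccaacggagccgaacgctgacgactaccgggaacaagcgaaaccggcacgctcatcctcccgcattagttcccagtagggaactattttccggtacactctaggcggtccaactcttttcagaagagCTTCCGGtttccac

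None of these stretches held CACGTG. The variant CACGCG was found 168 bases before the start of Rps24 and 88 before that of Rpsa, and CACATG 122 before that of Rps10. CCGGAAG was found 29 bases before the start of Rps10, 73 before Rps25, 14 before Rps7 and 188 before Rpsa. No match means only that these letters are not in this window, and the summits lay downstream of it.

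Over 300-base windows from 250 before to 50 after each annotated start, available for 24 of the 28 genes, CACGTG was in 1 gene (Rps19, in the window of an inner start), or 4.17%, compared with 8.91% of 17492 protein-coding genes and 21.3% of the 1465 genes with a peak in at least 2 libraries. CACATG was in 2 of 24 genes (8.33%), against 13.2% of all genes and 12.2% of those with a peak in at least 2 libraries. For CACGCG it was 5 genes (20.8%), above the 13.7% of all genes but below the 34.5% of those with such peaks. For CACGAG it was 4 genes (16.7%), against 8.25% of all genes and 15.3% of those with such peaks. CCGGAAG was in 10 of 24 (41.7%), compared with 12.9% of all genes and 22.2% of those with a peak in at least 2 libraries. A C followed by 4 bases that are each C or T, beginning within 4 bases before or up to 5 bases after the start, was in 12 of 24 (50%) and in 17.8% of all genes. The large-subunit genes held CCGGAAG in 14 of 34 and the pyrimidine run in 15 of 34. Matches were counted once per gene, so overlapping matches add nothing, and the median GC content of the windows was 56.5% in the 24 genes and 56.3% in all genes.

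The sequence within 50 bp of a summit could be read for 15 of the 71 member peaks, those that a RefSeq window covers. CACGTG lay there in 6, the 5 of Rps19 and the 1 of Rps28, compared with 21.2% of 1735 other gene-end peaks. Rps28, a head protein, had its summit in WT replicate 3 (chromosome 17, 33824485) 15 bp from a CACGTG that begins 57 bp inside the gene. It is shown on the plus strand, from the window of the neighbouring Ndufa7 (chr17:33824488-33824517), with the E-box in capitals.
Rps28 E-box: gcggagaggagtCACGTGagcaggggatgc
The covered summits of Rps10 (4), Rps12 (2), Rps13, Rps18 and Fau (1 each) had none. Since Rps19 gives 5 of the 6, the count is of 2 genes.

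Other genes of the same pathway give the scale. Of 47 large-subunit ribosomal protein genes, 29 (61.7%) had a peak in at least 2 libraries, and of 43 assembly factors of the small subunit, which cut and fold its rRNA precursor, 20 (46.5%) did. Of 30 genes for the small subunit of the mitochondrial ribosome it was 2 (6.67%), near the 8.03% of all genes. The large-subunit genes numbered 4, 0 and 7 in Homo, 22, 26 and 5 in Het, and 0, 17 and 33 in WT. The assembly factors numbered 3, 0 and 3 in Homo, 16, 18 and 3 in Het, and 0, 13 and 32 in WT. In Homo replicate 1 and Het replicate 3 both lists thus had peaks while the small-subunit genes had 0. The most widespread small-subunit genes reached 5 libraries, against 7 for the most widespread large-subunit genes and 6 for the most widespread assembly factors. No test of the difference between these lists was made.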

How the data were processed

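Bowtie2 2.2.3, Picard, MACS2 2.0.10.20131216, HOMER and mm10 are named in the submitters' processing notes, and the sources used here do not state the peak threshold. Each deposited list holds, as made by the authors with MACS2, a fold over local background for each peak, and −log10 p and −log10 q values, which the authors computed per library. Reads at each summit and the local background were solved from fold and p, in at least 98.9% of peaks of each library. Input depth was read as the lowest solved background over the shortest peak length. A gene had a peak when a summit lay within 1 kb of an end of its span among 21887 protein-coding genes of RefSeq (GRCm38.p6). Presence was compared by exact permutation over 3 against 3 libraries with Benjamini-Hochberg adjustment over all genes with a peak in either genotype. Shares have Clopper-Pearson 95% intervals. Promoters (24 of 28 genes matched) are from RefSeq. Named genes were those with a Homo peak, with 1 or no library, and others by number of libraries and fold; the remaining members are given to account for all 28. The members and lists were chosen with earlier results of these data known. The assignment of peaks to genes and the solving of reads and their ratio to input were tested on simulated data. The depth taken from the solved values was not, and it may be off in short lists. Python 3.11.15, numpy 2.4.6, pandas 2.3.3, scipy 1.17.1 and matplotlib 3.10.9 were used. Alternatives were other thresholds, windows, depth, list lengths and left-out libraries, and input libraries were not analysed here.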

Additional observations from a re-analysis of the deposited data

How the results depend on the processing

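The count of 18 genes with a peak in at least 2 of 9 libraries stayed within 1.5 times under limits of 5 on −log10 q or fold, of 10 on −log10 p, windows of 250 bp and 5 kb, any overlap, 5′ ends only and thinning, and was 15 to 18 when 1 library was left out. With lists cut to equal length, chosen after seeing the data, it was 0 for the 51 highest peaks and 2 for the 303 highest, fewer by construction. At 51 peaks the differences Homo minus WT and Homo minus Het in number were 0 and 0, since no member ranked that high in any list. At 303 they turned to 1 and 0.333 genes, with shares of 0.456 and 0.205 percentage points, and Het minus WT was 0.667 genes. This cut leaves Homo replicate 3 whole and shortens the longer lists, and the cause of the turn was not tested. Thinned to the shallowest input with −log10 p of at least 10, the count of genes in at least 2 libraries was 12. Homo minus WT was then -5.67 genes and Homo minus Het -6.67, with shares of -0.736 and -0.666 percentage points. The same limit on −log10 p without thinning gave a count of 16 and differences of -10 and -8.33 genes. With thinning, Het minus WT was 1 gene and -0.070 percentage points. Leaving out single libraries gave -17.3 to -6.33 genes for Homo minus WT and -14.8 to -6.83 for Homo minus Het, with shares of -0.683 to -0.0243 and -0.878 to -0.264 percentage points, while Het minus WT ran from -7.67 to 3.5 genes and from -0.208 to 0.534 percentage points. The sign of the Het minus WT number (-1.67) turned to 3.5 without Het replicate 3 and 3.33 without WT replicate 3, and that of its share (0.13) to -0.0807 without Het replicate 1, -0.0621 without Het replicate 2 and -0.208 without WT replicate 1. Members in every library of 1 genotype and none of the other ran from 0 to 11 for Homo against WT (11 without WT replicate 1) and from 0 to 11 for Homo against Het (11 without Het replicate 3). Without Homo replicate 2 and WT replicate 1 together, that count was 11 for Homo against WT and the Het minus WT share was -0.208. Differences taken within replicate numbers have the same means by construction. These were -11.3 genes for Homo minus WT, -9.67 for Homo minus Het and -1.67 for Het minus WT. The SDs of these differences were 10.3, 10.1 and 18.8 genes. Correlations between same-numbered libraries of different genotypes were -0.207 to 0.0878 over 9 pairs, and -0.160 to 0.223 over the 18 other pairs. Some lists are short, so these values cannot settle whether the numbers pair the libraries. Libraries with short lists limit what a missing peak can show.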
